A study of Homo sapiens with 9 samples.

Results

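Protocadherins are membrane proteins of the cadherin superfamily through which cells recognize and adhere to one another. The members described here are the 73 rows whose symbol starts with PCDH followed by a digit, A, B or G, out of 26485 genes in the tables. They comprise 15 alpha, 16 beta and 22 gamma genes, 13 non-clustered genes, 4 pseudogenes and 3 antisense genes, so that 66 are protein-coding. The membership rule used the symbol only and no measured value, but the members were chosen with earlier results of these data known.

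RNA was sequenced from MDA-MB-231, a human triple-negative breast cancer cell line, in 9 libraries. The control cells stably expressed a nonspecific hairpin (NS shRNA, n = 3), and the knockdown cells expressed 1 of 2 hairpins against ASAH1, called ASAH1 shRNA #1 (n = 3) and ASAH1 shRNA #2 (n = 3). ASAH1 encodes acid ceramidase, the lysosomal enzyme that cleaves ceramide. All 9 libraries thus came from 1 line carrying a hairpin, without a parental culture, and both comparisons used the same 3 NS shRNA libraries. The replicates are described as biological but not as separately derived cell populations, so the p-values measure the spread between these libraries.

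The clustered protocadherins lie in a row on chromosome 5q31. In hg38, the alpha genes span chr5:140786136-141012347, the beta genes chr5:141051374-141249365 and the gamma genes chr5:141330514-141512977, all on the plus strand. Each gene has its own promoter. Alpha and gamma transcripts join 1 long variable exon to short constant exons that all genes of that cluster share, whereas beta genes use no shared constant exons. In neurons, where the family is best known, a cell uses a subset of these promoters, chosen with the help of the factor CTCF, the cohesin ring and distant enhancers, and DNA methylation keeps the other promoters silent. Many non-clustered protocadherins lie alone elsewhere in the genome and have their own tissue patterns.

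A short element near the start is what most promoters of a cluster have in common, and it is where CTCF is known to bind. The RefSeq promoter set (GRCh38.p14, 250 bases before to 50 after each start) held 60 of the 73 members. It held none for PCDH10, PCDH20, PCDHA3, PCDHA13, PCDHB6, PCDHB11, PCDHGA12, PCDHGC5, PCDH9-AS2 or the pseudogenes. Both strands were searched for the letters ATGTCGCT (alpha), GGTGGCGCT (beta) and a gamma string that reads G, any base, CGCTGT, any 3 bases and CC, all of which contain CGCT and so overlap one another. GGTGGCGCT was found in 13 of 14 beta promoters, PCDHB1 being the exception, and in 0.501% of all 35116 promoters. ATGTCGCT was found in 9 of 13 alpha promoters and 0.234% of all promoters. The gamma string was found in 14 of 20 gamma promoters, in 5 of 13 alpha promoters and in 0.530% of all promoters. It was not found for PCDHGB2, the gamma gene with the highest level, nor for PCDHGA1, PCDHGA9, PCDHGA11, PCDHGB3 or PCDHGB7. None of the 11 non-clustered promoters held any of these 3 strings, which says only that these letters are absent from the windows. A looser string of the usual CTCF motif, CC, any 3 bases, AG, any 2 bases and GGC, was found in 10.6% of all promoters and in 1 beta, 0 gamma, 0 alpha and 3 non-clustered promoters.

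The stretches around the element are shown for 6 beta and 4 gamma genes that the results below turn on, and for 2 alpha genes with almost no reads. Only genes with the string of their cluster are shown, which leaves out PCDHGB2. The capitals mark the element of the gene's own cluster, and all lie on the plus strand.
PCDHA1 chr5:140786086-140786117: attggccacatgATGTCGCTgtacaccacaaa
PCDHA7 chr5:140834172-140834203: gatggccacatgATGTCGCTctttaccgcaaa
PCDHB7 chr5:141172565-141172597: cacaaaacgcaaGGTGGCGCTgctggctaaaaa
PCDHB9 chr5:141187073-141187105: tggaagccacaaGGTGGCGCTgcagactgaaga
PCDHB10 chr5:141192298-141192330: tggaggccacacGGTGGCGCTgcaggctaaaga
PCDHB12 chr5:141208642-141208674: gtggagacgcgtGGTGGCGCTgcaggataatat
PCDHB14 chr5:141223262-141223294: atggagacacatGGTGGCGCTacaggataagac
PCDHB15 chr5:141245313-141245345: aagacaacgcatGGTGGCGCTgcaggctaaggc
PCDHGB1 chr5:141350027-141350063: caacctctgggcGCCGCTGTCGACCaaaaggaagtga
PCDHGA4 chr5:141354962-141354998: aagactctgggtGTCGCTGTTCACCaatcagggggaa
PCDHGA10 chr5:141412933-141412969: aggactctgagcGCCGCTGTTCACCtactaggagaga
PCDHGC3 chr5:141475882-141475918: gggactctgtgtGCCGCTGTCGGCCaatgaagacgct

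The wider setting is shown for 1 gene of each expressed cluster, as the 250 bases before the start. That of PCDHB14, the beta gene with the highest level, has 7 CpG sites and a GC content of 33.6%, and that of PCDHGA4 has 2 CpG sites and a GC content of 30.0%.
PCDHB14 chr5:141223093-141223342: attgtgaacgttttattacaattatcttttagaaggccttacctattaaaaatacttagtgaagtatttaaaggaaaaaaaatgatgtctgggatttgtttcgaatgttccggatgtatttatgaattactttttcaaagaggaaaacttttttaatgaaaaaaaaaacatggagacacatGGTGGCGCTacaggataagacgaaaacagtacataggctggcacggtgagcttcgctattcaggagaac
PCDHGA4 chr5:141354771-141355020: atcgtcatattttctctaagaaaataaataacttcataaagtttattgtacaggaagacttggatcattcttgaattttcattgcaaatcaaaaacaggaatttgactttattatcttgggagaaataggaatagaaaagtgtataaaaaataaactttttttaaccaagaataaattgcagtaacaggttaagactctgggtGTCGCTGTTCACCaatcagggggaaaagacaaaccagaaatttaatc

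The libraries held 23806003 to 49659106 reads on genes. The values deposited are DESeq2-normalized counts in 2 tables, 1 for each ASAH1 hairpin with the NS shRNA libraries, so the same NS shRNA library has a slightly different value in each table. ASAH1 read 4436, 4512 and 4518 normalized counts with NS shRNA and 1268, 1365 and 1348 with ASAH1 shRNA #1 in the first table. In the second table it read 4787, 4898 and 4871 with NS shRNA and 779.6, 807 and 762 with ASAH1 shRNA #2. The knockdown was thus present in every library, with log2 fold changes of -1.76 ± 0.05 (SE) and -2.63 ± 0.06. All 8 markers of the line were present with at least 2667 reads in each library, among them VIM with 41873 to 72608 reads. ESR1 and PGR had at most 2 reads in any library, whereas the third receptor, ERBB2, had 1530 to 3581. Among leukocyte markers, CD3E had at most 3 reads, PTPRC 8 and LYZ 14.

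Differences against NS shRNA were tested with limma on log2(normalized count + 1), for genes with a mean of at least 10 normalized counts in the table, at a Benjamini-Hochberg adjusted p of 0.05 over all genes tested. Of 14341 genes tested with ASAH1 shRNA #1, 66.1% passed, 32.8% higher and 33.3% lower. Of 14250 genes tested with ASAH1 shRNA #2, 66.9% passed, 33.5% higher and 33.4% lower. In both comparisons about as many genes rose as fell, and the median log2 fold change of all genes tested was 0.0013 and 0.013.

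The protocadherins were weakly expressed in these cells, and in the beta cluster the genes with reads lay together downstream. Levels between genes were compared as reads scaled to 1000000 reads on genes (RPM) and divided by the kilobases of unshared exon (RPKM). The 15 alpha genes had between 0 and 7 reads in any library, and 2 of them had no read in all 9 libraries. The 6 beta genes at the upstream end of their cluster, PCDHB1 to PCDHB6, had 0 to 10 reads, and PCDHB1 had no read at all. The 10 beta genes that follow, from PCDHB7 to PCDHB15, passed the minimum of 10 in at least 1 table. In the gamma cluster, 12 of 22 genes passed it, and the other 10 had 0 to 13 reads.

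**Figure D1:**
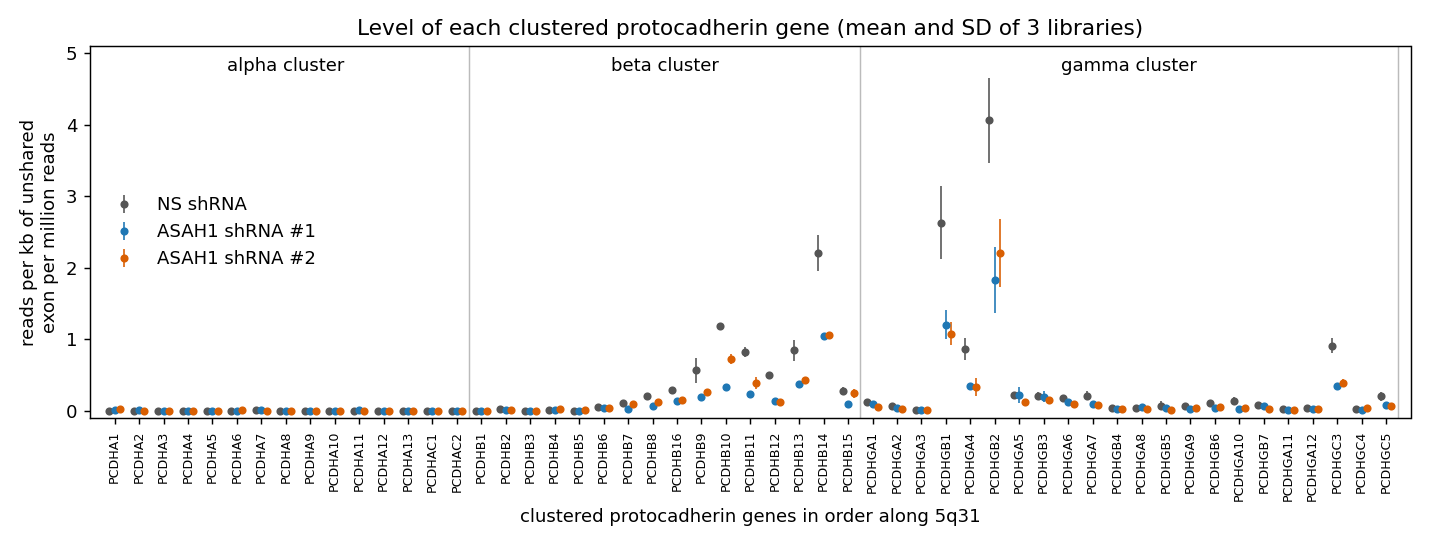
The level of each of the 53 clustered protocadherin genes, in order along 5q31 (x axis), in RPM divided by the kilobases of unshared exon (y axis). Points are means and bars SDs of 3 libraries for NS shRNA (gray), ASAH1 shRNA #1 (blue) and ASAH1 shRNA #2 (orange). The alpha genes sit at the floor, and PCDHGB2, PCDHGB1 and PCDHB14 stand highest with NS shRNA, at 4.06, 2.63 and 2.21.

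With NS shRNA, PCDHGB2 stood at 4.06 ± 0.60 RPKM (SD, n = 3), PCDHGB1 at 2.63 ± 0.51 and PCDHB14 at 2.21 ± 0.25. PCDHB10 followed with 1.18 ± 0.04, then PCDHGC3 with 0.912 ± 0.106, PCDHGA4 with 0.871 ± 0.153, PCDHB13 with 0.844 ± 0.148 and PCDHB11 with 0.820 ± 0.068. Neighbors in this order differed by less than their spread from PCDHGB1 to PCDHB14 and from PCDHGC3 to PCDHB11. PCDHB14 supplied 33.2% of all beta reads with NS shRNA, and PCDHGB2 and PCDHGB1 supplied 36.2% and 23.1% of the gamma reads. PCDH1, a non-clustered gene expressed in epithelia, stood at 4.82 ± 0.46 RPKM and supplied 94.7% of the non-clustered reads. Reads that could not be assigned to 1 gene were left out by the counting, so alpha and gamma values rest on the variable exons. Among the gamma genes 27.5% to 64.4% of exonic bases are shared with another protocadherin in GENCODE v44. Close copies among the beta and gamma genes may still have lost or exchanged reads, so the values of single paralogs are uncertain to that extent.

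The beta and the gamma genes were lower as groups with both hairpins, whereas the non-clustered genes did not move one way. The summed beta reads were 26.5, 28.8 and 32.7 RPM with NS shRNA, 11.7, 11.9 and 10.6 with ASAH1 shRNA #1, and 15.01, 16.5 and 13.9 with ASAH1 shRNA #2. The summed gamma reads were 25.5, 31.4 and 32.0 RPM with NS shRNA, 17.2, 14.4 and 11.4 with ASAH1 shRNA #1, and 14.1, 16.3 and 11.8 with ASAH1 shRNA #2. In both clusters every knockdown library lay below every NS shRNA library. The mean of the beta sum was 38.8% of that with NS shRNA for ASAH1 shRNA #1 and 51.6% for ASAH1 shRNA #2. The mean of the gamma sum was 48.3% and 47.4%. The non-clustered sum, which is mostly PCDH1, was 78.8% with ASAH1 shRNA #1 and 180.5% with ASAH1 shRNA #2. Fewer cells that use a promoter and less RNA per cell cannot be told apart in these bulk libraries.

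**Figure D2:**
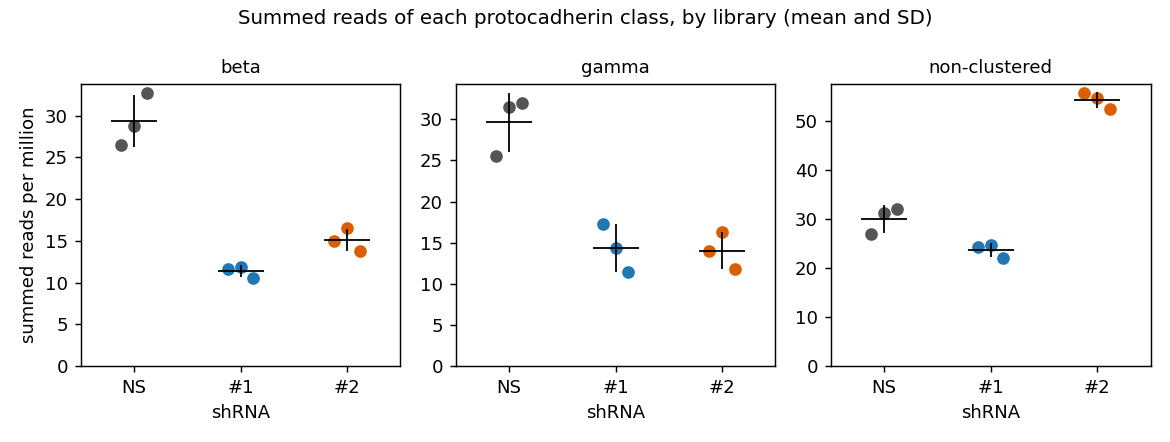
Summed RPM (y axis) of the beta, gamma and non-clustered protocadherins in each of the 9 libraries, by hairpin (x axis). Colored points are libraries, and black bars give the mean and SD. All 6 knockdown libraries lie below the 3 NS shRNA libraries for beta (10.6 to 16.5 against 26.5 to 32.7) and gamma (11.4 to 17.2 against 25.5 to 32.0), while the non-clustered sum is highest with ASAH1 shRNA #2.

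With ASAH1 shRNA #1, 9 of 9 beta genes tested fell, with a median log2 fold change of -1.52. Of 12 gamma genes tested, 8 fell and 4 did not pass, with a median of -1.14. Among the 25 protein-coding members tested, 19 fell, 1 rose and 5 did not pass, against 33.3% lower and 32.8% higher among all genes. With ASAH1 shRNA #2, 7 of 10 beta genes fell (median -0.80) and 8 of 12 gamma genes fell (median -1.09). Here 16 of 24 protein-coding members fell, 1 rose and 7 did not pass, against 33.4% lower and 33.5% higher among all genes. No beta or gamma gene rose with either hairpin by limma, and the edgeR and DESeq2 tests called none higher either. All 3 knockdown libraries lay below all 3 NS shRNA libraries for 17 of 21 clustered genes with ASAH1 shRNA #1 and for 17 of 22 with ASAH1 shRNA #2, against 34.7% and 34.8% of all genes tested.

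The minimum of 10 shaped which members were tested. In each table, 6 members had a mean of 10 or more in 1 of the 2 groups only. A member that entered through its higher group alone had to differ in its means, though not to pass the test. With NS shRNA as that group these were PCDH18, PCDHGA10, PCDHGB6 and PCDHGC5 in both tables, PCDHB8 in the first, and PCDHGA1 and PCDHGA7 in the second, while PCDH9 entered the first through ASAH1 shRNA #1. Among members with a mean of 10 or more in both groups, a count made after seeing the data, 8 of 8 beta and 5 of 9 gamma genes fell with ASAH1 shRNA #1, and 7 of 10 beta and 5 of 7 gamma genes fell with ASAH1 shRNA #2. All 3 knockdown libraries lay below all 3 NS shRNA libraries for 13 of these 17 genes with ASAH1 shRNA #1 and for 14 of 17 with ASAH1 shRNA #2. Shares of all genes were counted only at the minimum over both groups together. There, 33.3% and 33.4% were called lower, and 34.7% and 34.8% had all 3 knockdown libraries below. The tested member with the lowest mean was PCDH9 in the first table (11.1 normalized counts) and PCDH18 in the second (11.4), and the untested members with the highest mean were PCDHB19P (9.73) and PCDHGA2 (8.33). The gamma count for ASAH1 shRNA #1 dropped from 8 to 5 without NS shRNA replicate 2 and also without ASAH1 shRNA #1 replicate 2.

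**Figure D3:**
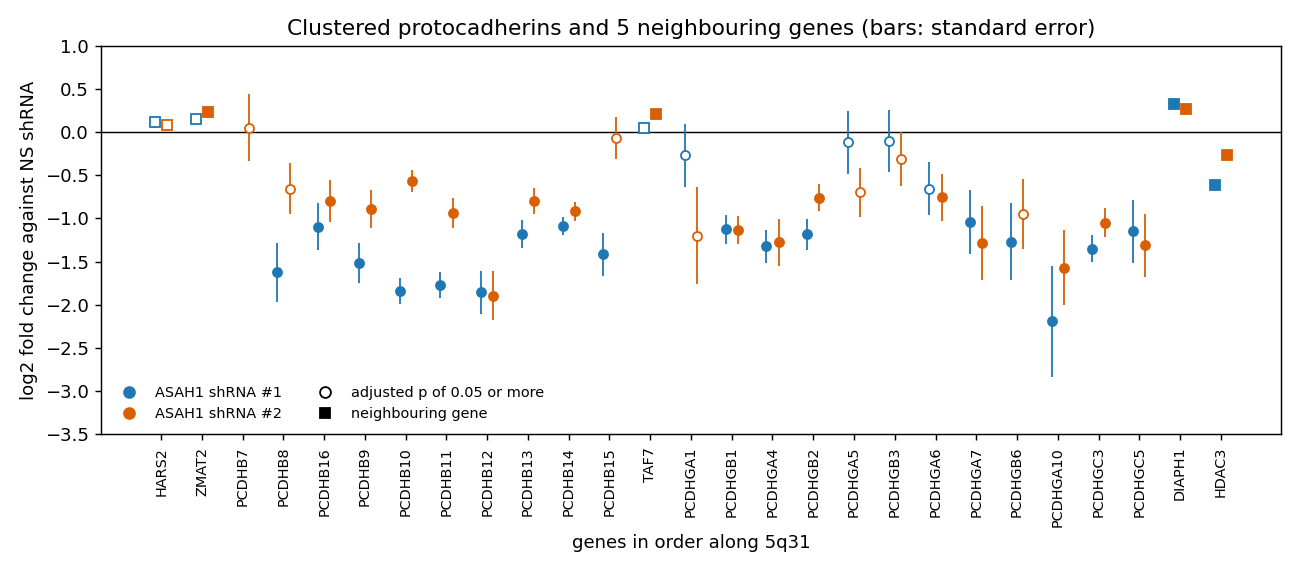
Log2 fold change against NS shRNA (y axis) of the 22 beta and gamma genes tested and of 5 neighboring genes, in order along 5q31 (x axis), for ASAH1 shRNA #1 (blue) and ASAH1 shRNA #2 (orange). Bars are standard errors, and open symbols mark an adjusted p of 0.05 or more. Nearly all protocadherins lie below 0. TAF7 (0.05 and 0.22) and DIAPH1 (0.33 and 0.27), which lie between and beside the clusters, are above it, and HDAC3 (-0.62 and -0.27) is below. TAF7 did not pass with ASAH1 shRNA #1. The 5 shown are a part of 22 neighbors tested, of which 12 fell and 4 rose with ASAH1 shRNA #1. With ASAH1 shRNA #2, 9 fell and 5 rose.

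Among the beta genes, PCDHB14 showed the change most precisely. It read 276, 323 and 345 normalized counts with NS shRNA and 152, 141 and 148 with ASAH1 shRNA #1. In the second table it read 298, 350.5 and 372 with NS shRNA and 179, 182 and 175 with ASAH1 shRNA #2. The groups did not overlap with either hairpin, and the log2 fold changes were -1.09 ± 0.11 (adjusted p = 1.57e-05) and -0.92 ± 0.11 (adjusted p = 2.92e-05).

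PCDHB12 fell by a similar amount with each hairpin. It read 65.9, 59.9 and 64.6 normalized counts with NS shRNA and 18.7, 21.7 and 11.5 with ASAH1 shRNA #1. In the second table it read 71.1, 65.0 and 69.7 with NS shRNA and 22.6, 22.4 and 10.9 with ASAH1 shRNA #2. No knockdown library reached a control library with either hairpin, with log2 fold changes of -1.86 ± 0.25 (adjusted p = 0.00013) and -1.89 ± 0.28 (adjusted p = 0.000163).

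PCDHB10 and PCDHB11, which lie side by side, fell with both hairpins. PCDHB10 read 121, 128 and 129 normalized counts with NS shRNA and 30.8, 39.4 and 33.6 with ASAH1 shRNA #1, and in the second table, 131, 138 and 139 with NS shRNA and 88.4, 101 and 86.1 with ASAH1 shRNA #2. PCDHB11 read 102, 111 and 119 with NS shRNA and 29.4, 32.9 and 32.7 with ASAH1 shRNA #1, and in the second table, 109.5, 120.4 and 128 with NS shRNA and 53.9, 77.7 and 55.8 with ASAH1 shRNA #2. None of these groups overlapped. PCDHB10 changed by -1.84 ± 0.15 (adjusted p = 4.82e-06) and -0.57 ± 0.13 (adjusted p = 0.00272) on the log2 scale. PCDHB11 changed by -1.77 ± 0.15 (adjusted p = 6.24e-06) and -0.94 ± 0.17 (adjusted p = 0.000702).

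PCDHB9, PCDHB13 and PCDHB16 fell with both hairpins as well. PCDHB9 read 60.7, 72.6 and 109 normalized counts with NS shRNA and 29.4, 28.1 and 23.1 with ASAH1 shRNA #1, and in the second table, 65.5, 78.8 and 117 against 50.7, 43.7 and 41.9 with ASAH1 shRNA #2. PCDHB13 read 118, 132 and 164 with NS shRNA and 65.5, 62.7 and 51.9 with ASAH1 shRNA #1, and in the second table, 128, 143 and 177 against 87.3, 88.4 and 78.3. The groups stayed apart for both genes, with log2 fold changes of -1.52 ± 0.23 and -0.89 ± 0.22 for PCDHB9 and of -1.18 ± 0.16 and -0.80 ± 0.15 for PCDHB13. PCDHB16 read 36.6, 28.5 and 41.5 with NS shRNA and 18.7, 18.5 and 11.5 with ASAH1 shRNA #1, and in the second table, 39.5, 30.9 and 44.8 against 22.6, 23.3 and 18.6. Its log2 fold changes were -1.10 ± 0.27 (adjusted p = 0.0056) and -0.80 ± 0.24 (adjusted p = 0.0133), the latter passing no longer without NS shRNA replicate 3 (adjusted p = 0.0584).

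PCDHB15, PCDHB8 and PCDHB7 were lower with ASAH1 shRNA #1 than with ASAH1 shRNA #2. PCDHB15, at the downstream end of the cluster, read 42.9, 34.3 and 30.5 normalized counts with NS shRNA and 13.4, 14.5 and 10.6 with ASAH1 shRNA #1, a log2 fold change of -1.42 ± 0.25 (adjusted p = 0.000813). In the second table it read 46.3, 37.3 and 32.9 with NS shRNA and 38.8, 45.7 and 27.9 with ASAH1 shRNA #2, and these groups overlapped (-0.06 ± 0.24, adjusted p = 0.833). PCDHB8 read 15.7, 22.6 and 18.5 with NS shRNA and 6.69, 4.02 and 5.77 with ASAH1 shRNA #1 (-1.63 ± 0.34, adjusted p = 0.00228). Against ASAH1 shRNA #2 the values of PCDHB8 were 16.9, 24.5 and 19.9 with NS shRNA and 10.8, 13.6 and 13.2 with the hairpin, apart from each other but short of the threshold (-0.66 ± 0.30, adjusted p = 0.0725). PCDHB7 had 13, 7 and 20 reads with NS shRNA, 2, 5 and 4 reads with ASAH1 shRNA #1 and 11, 14 and 20 reads with ASAH1 shRNA #2. It was below the minimum in the first table, where its summed RPM were 0.280 of those with NS shRNA (95% interval 0.130 to 0.557, counting error only), and overlapped with NS shRNA in the second (0.05 ± 0.39, adjusted p = 0.911).

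In the gamma cluster, PCDHGB1 and PCDHGB2, with the highest levels, fell with both hairpins. PCDHGB2 read 297, 344 and 396 normalized counts with NS shRNA and 193, 153 and 116 with ASAH1 shRNA #1, and in the second table, 321, 374 and 427 against 220.0, 270.2 and 177 with ASAH1 shRNA #2. PCDHGB1 read 175, 229.6 and 257 with NS shRNA and 102, 116 and 82.6 with ASAH1 shRNA #1, and in the second table, 189, 249.3 and 277 against 101, 124 and 95.4. The lowest NS shRNA library lay above the highest knockdown library in each of these comparisons. PCDHGB2 changed by -1.18 ± 0.18 (adjusted p = 0.00027) and -0.76 ± 0.16 (adjusted p = 0.00153), and PCDHGB1 by -1.13 ± 0.17 (adjusted p = 0.000288) and -1.14 ± 0.16 (adjusted p = 0.000121).

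PCDHGA4, which lies between them, and PCDHGC3, one of the C-type genes that neurons use differently from the rest, fell too. PCDHGA4 read 62.8, 89.3 and 76.6 normalized counts with NS shRNA and 26.7, 34.5 and 27.9 with ASAH1 shRNA #1, and in the second table, 67.8, 96.9 and 82.6 against 45.3, 37.9 and 20.9 with ASAH1 shRNA #2. PCDHGC3 read 83.7, 105 and 98.8 with NS shRNA and 36.1, 37.8 and 36.5 with ASAH1 shRNA #1, and in the second table, 90.3, 114 and 107 against 56.1, 46.6 and 45.8. None of these groups overlapped. PCDHGA4 changed by -1.32 ± 0.19 (adjusted p = 0.00024) and -1.28 ± 0.28 (adjusted p = 0.00197), and PCDHGC3 by -1.35 ± 0.15 (adjusted p = 4.32e-05) and -1.05 ± 0.17 (adjusted p = 0.000243).

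The other 8 gamma genes tested had few reads, which are given here per library without scaling. PCDHGA10 had 11, 21 and 29 reads with NS shRNA, 8, 3 and 1 with ASAH1 shRNA #1 and 9, 6 and 5 with ASAH1 shRNA #2. PCDHGC5 had 12, 22 and 24 reads, 8, 9 and 6, and 8, 6 and 10 in the same order of groups. Both genes passed the test as lower with either hairpin, PCDHGA10 at -2.20 ± 0.64 and -1.57 ± 0.44 on the log2 scale and PCDHGC5 at -1.15 ± 0.36 and -1.31 ± 0.36, but both reached the minimum through NS shRNA alone. PCDHGA7 had 27, 24 and 16 reads with NS shRNA, 11, 12 and 7 with ASAH1 shRNA #1 and 5, 17 and 10 with ASAH1 shRNA #2, and its changes were -1.04 ± 0.37 (adjusted p = 0.0305) and -1.28 ± 0.43 (adjusted p = 0.0211). Leaving out 1 library put the adjusted p above 0.05 in 4 of 6 fits for PCDHGA7 and for PCDHGC5 with ASAH1 shRNA #1, and in 3 of 6 for PCDHGA7 with ASAH1 shRNA #2.

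PCDHGB6 and PCDHGA6 passed with 1 hairpin each. PCDHGB6 had 17, 22 and 11 reads with NS shRNA, 7, 4 and 7 with ASAH1 shRNA #1 and 5, 11 and 13 with ASAH1 shRNA #2 (-1.27 ± 0.45, adjusted p = 0.0303, and -0.94 ± 0.41, adjusted p = 0.0608). PCDHGA6 had 31, 30 and 42 reads, 23, 27 and 14, and 14, 23 and 35 in these groups (-0.65 ± 0.30, adjusted p = 0.0835, and -0.75 ± 0.27, adjusted p = 0.0298). A difference between the hairpins was not called for either gene. The call of PCDHGB6, which reached the minimum through NS shRNA alone, was kept in 3 of 5 fits that left out 1 library and in which it was tested. That of PCDHGA6 was kept in 3 of 6 such fits and in 6 of 9 other settings, and DESeq2 was among those that lost it (adjusted p = 0.0611).

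PCDHGA5, PCDHGB3 and PCDHGA1 passed with neither hairpin by limma at the settings given above. PCDHGA5 had 21, 25 and 34 reads with NS shRNA, 30, 30 and 14 with ASAH1 shRNA #1 and 18, 20 and 16 with ASAH1 shRNA #2 (-0.12 ± 0.36 and -0.70 ± 0.29). PCDHGB3 had 16, 23 and 14 reads, 15, 25 and 10, and 15, 16 and 16 (-0.10 ± 0.36 and -0.31 ± 0.31). PCDHGA1 had 21, 16 and 11 reads, 10, 11 and 17, and 2, 14 and 11 (-0.27 ± 0.37 and -1.20 ± 0.56). PCDHGA5 was close to the threshold with ASAH1 shRNA #2 (adjusted p = 0.0518), where its 3 knockdown libraries (12.4 to 19.4 normalized counts) lay below the 3 controls (23.7 to 33.8). It stayed short of the threshold in 5 of 9 other settings that kept all libraries. It passed in the rest, among them edgeR (adjusted p = 0.042). With ASAH1 shRNA #1 the knockdown and control libraries of all 3 genes overlapped. At this depth a change of the size seen in PCDHB14 may go undetected.

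The few non-clustered genes tested, 4 with ASAH1 shRNA #1 and 2 with ASAH1 shRNA #2, went separate ways. PCDH1 was the only abundant one, and it moved in opposite directions with the 2 hairpins. It read 825, 961 and 981 normalized counts with NS shRNA and 722, 745 and 659 with ASAH1 shRNA #1, a fall by 0.38 ± 0.08 on the log2 scale (adjusted p = 0.0029). In the second table it read 889.9, 1043 and 1057 with NS shRNA and 2125, 2058 and 2004 with ASAH1 shRNA #2, a rise of 1.05 ± 0.08 (adjusted p = 1.05e-06). PCDH1 is on the same chromosome arm as the clusters, on the minus strand at chr5:141853090-141879246.

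PCDH18 and PCDH9 are adhesion genes of the delta protocadherin group with few reads here. PCDH18 had 15, 21 and 25 reads with NS shRNA, 2, 4 and 3 with ASAH1 shRNA #1 and 3, 1 and 0 with ASAH1 shRNA #2. No knockdown library reached the lowest control, and the gene passed as lower with both hairpins (adjusted p = 0.000285 and 0.000371). It reached the minimum through NS shRNA alone, and was tested in 4 of the 6 fits that left out 1 library for each hairpin, passing in those. From summed RPM, it was 6.65 times lower with ASAH1 shRNA #1 (95% counting interval 3.28 to 15.2) and 19.2 times lower with ASAH1 shRNA #2 (7.13 to 72.8). PCDH9 had 4, 3 and 7 reads with NS shRNA, 17, 23 and 12 with ASAH1 shRNA #1 and 2, 1 and 0 with ASAH1 shRNA #2. It rose with ASAH1 shRNA #1 (1.75 ± 0.41, adjusted p = 0.00429) and was below the minimum in the second table, where its summed RPM were 0.170 of those with NS shRNA (0.0313 to 0.609). Without ASAH1 shRNA #1 replicate 1 or 2, PCDH9 was below the minimum in the first table too, and 0 members were then called higher.

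PCDH7, another delta protocadherin, had 12, 7 and 15 reads with NS shRNA, 14, 17 and 14 with ASAH1 shRNA #1 and 3, 5 and 3 with ASAH1 shRNA #2. Its first 2 groups overlapped (0.47 ± 0.35, adjusted p = 0.264), and all 3 ASAH1 shRNA #2 libraries lay below the others. In the second table it was below the minimum, with summed RPM at 0.257 of those with NS shRNA (0.117 to 0.519). The other 9 non-clustered genes had at most 19 reads in any library. Among them, PCDH10 had 3 to 8 reads with NS shRNA, 2 to 19 with ASAH1 shRNA #1 and 8 to 14 with ASAH1 shRNA #2. PCDH17 had 3 to 8, 0 to 2 and 1 to 7 reads. PCDH15 had 1 to 4 reads with NS shRNA and none in the 6 knockdown libraries. Setting each knockdown group to a floor of 3 reads made it 2.62 and 3.36 times lower, with the NS shRNA reads taken as exact. PCDH12, PCDH19 and PCDH20 had at most 3 reads in a library, and PCDH8, PCDH11X and PCDH11Y had none.

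**Figure D4:**
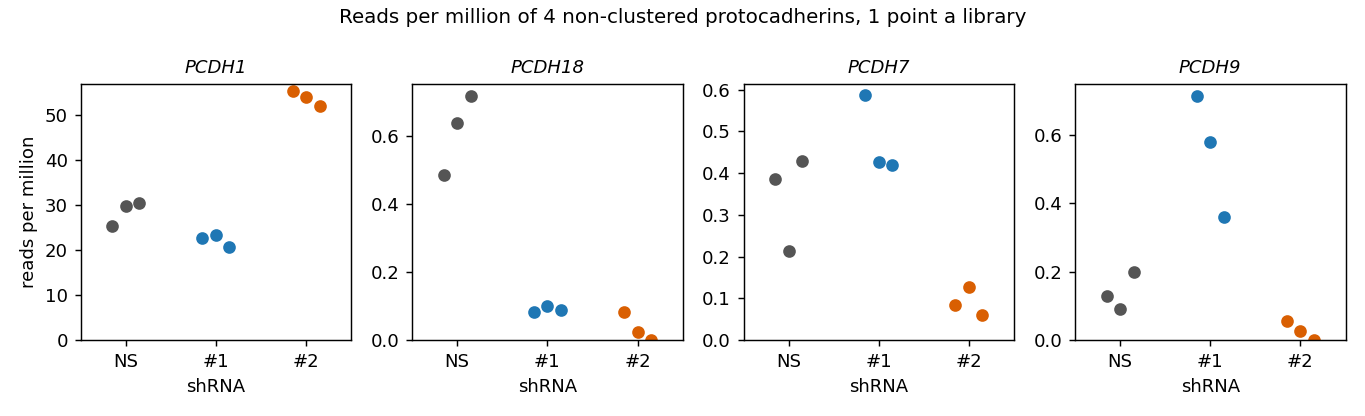
RPM (y axis) of PCDH1, PCDH18, PCDH7 and PCDH9 in each library, by hairpin (x axis), 1 point a library. PCDH18 is low with both hairpins, PCDH1 is highest with ASAH1 shRNA #2, and PCDH9 is highest with ASAH1 shRNA #1, whereas PCDH7 is low with ASAH1 shRNA #2 alone.

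The pseudogenes and antisense genes had few reads. PCDHB19P, which lies between PCDHB14 and PCDHB15, had 11, 13 and 17 reads with NS shRNA, 8, 6 and 3 with ASAH1 shRNA #1 and 11, 15 and 20 with ASAH1 shRNA #2. It was tested in the second table, where the groups overlapped (-0.04 ± 0.31, adjusted p = 0.922). PCDHB17P, PCDHB18P and PCDHGB8P had at most 8 reads, and the 3 antisense genes of PCDH9 had none.

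The hairpins were compared directly with the edgeR quasi-likelihood test on reads recovered from the normalized counts of all 9 libraries, for genes with a mean of at least 10 reads. Of 14381 genes tested, 63.9% passed, 31.4% higher and 32.5% lower with ASAH1 shRNA #2. Of 10 beta genes tested, 6 were higher with ASAH1 shRNA #2 and none was lower, with a median log2 ratio of 0.74 and a median of -0.0046 over all genes. They were PCDHB7 (1.78 ± 0.44, adjusted p = 0.00418), PCDHB8 (1.11 ± 0.34, adjusted p = 0.014), PCDHB9 (0.63 ± 0.25, adjusted p = 0.0476), PCDHB10 (1.26 ± 0.15, adjusted p = 2.38e-05), PCDHB11 (0.84 ± 0.19, adjusted p = 0.00237) and PCDHB15 (1.40 ± 0.28, adjusted p = 0.00102). With DESeq2, PCDHB8 and PCDHB9 did not pass (adjusted p = 0.0584 and 0.0518). PCDHB7 and PCDHB8 had at most 5 and 6 reads in any ASAH1 shRNA #1 library, so they reached the minimum only through the other groups. The filter thus took them in with ASAH1 shRNA #1 as a low group, and their calls are weaker evidence beside the share of all genes. PCDHB12, PCDHB13, PCDHB14 and PCDHB16 did not pass, with log2 ratios of -0.06 ± 0.33, 0.37 ± 0.17, 0.16 ± 0.11 and 0.28 ± 0.27.

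None of 12 gamma genes differed between the hairpins by the edgeR test, 0 of them at an unadjusted p under 0.05 and 0 by DESeq2. Their median log2 ratio was -0.06, from -0.73 to 0.49. PCDHGB1 had a ratio of -0.03 ± 0.18 and PCDHGA4 of 0.05 ± 0.29, whereas PCDHGB2 had 0.42 ± 0.20 (adjusted p = 0.0821). Among the non-clustered genes, PCDH1 was higher with ASAH1 shRNA #2 (1.42 ± 0.07, adjusted p = 3.13e-08) and PCDH7 lower (-2.22 ± 0.41, adjusted p = 0.00061). PCDH7 had at most 5 reads in any ASAH1 shRNA #2 library and reached the minimum only through the other groups. Whether beta and gamma genes differ in this respect was not tested.

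**Figure D5:**
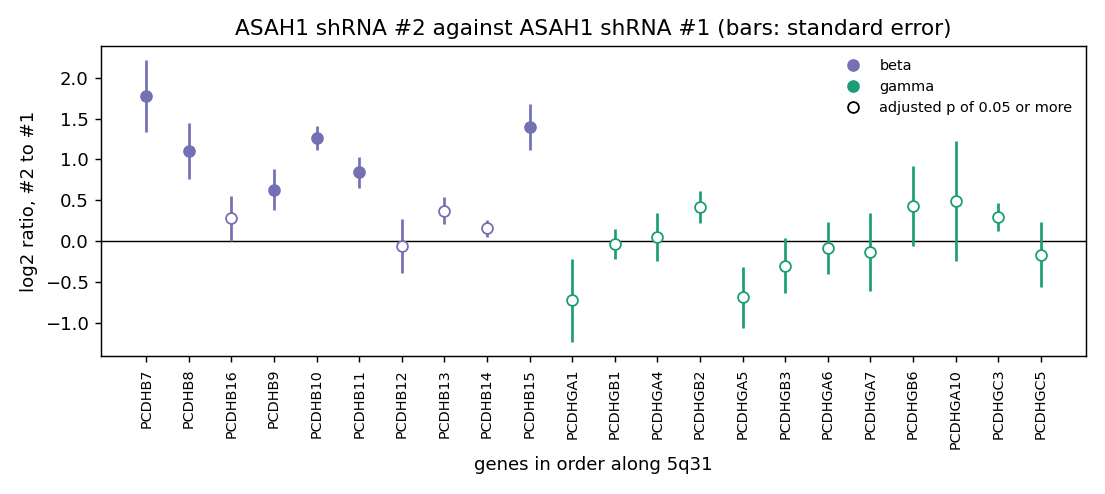
Log2 ratio of ASAH1 shRNA #2 to ASAH1 shRNA #1 (y axis) for 10 beta (purple) and 12 gamma genes (green) in order along 5q31 (x axis). Bars are standard errors, and open symbols mark an adjusted p of 0.05 or more. The filled symbols are 6 beta genes, from 0.63 for PCDHB9 to 1.78 for PCDHB7, while all 12 gamma symbols are open. PCDHB7 and PCDHB8 reached the minimum only through groups other than ASAH1 shRNA #1.

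Genes known to govern the clustered promoters moved in both directions. Of 24 such regulators, 7 rose, 9 fell and 8 did not pass with ASAH1 shRNA #1, and 13 rose, 5 fell and 6 did not pass with ASAH1 shRNA #2. Among all genes tested, 32.8% rose and 33.3% fell with the first hairpin and 33.5% and 33.4% with the second, and the shares for ASAH1 shRNA #1 are near these. CTCF, which binds the promoter element shown above, read 2269, 2353 and 2413 normalized counts with NS shRNA and 2181, 2261 and 2248 with ASAH1 shRNA #1 (-0.07 ± 0.05, adjusted p = 0.219), and it rose with ASAH1 shRNA #2 (0.49 ± 0.06, adjusted p = 2.21e-05). SMCHD1, a chromatin protein that keeps clustered protocadherins silent, showed 0.14 ± 0.07 (adjusted p = 0.11) with ASAH1 shRNA #1 and rose by 0.91 ± 0.07 (adjusted p = 1.47e-06) with ASAH1 shRNA #2, from 3311, 3697 and 3932 to 7083, 6941 and 6489 normalized counts.

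The subunits of cohesin, the ring that forms DNA loops, moved in both directions. RAD21 fell by 0.30 ± 0.05 and SMC1A by 0.57 ± 0.06 with ASAH1 shRNA #1, against 0.01 ± 0.06 and -0.15 ± 0.07 with ASAH1 shRNA #2, which did not pass. SMC3 showed 0.12 ± 0.05 (adjusted p = 0.055) and then fell by 0.14 ± 0.06 (adjusted p = 0.0397). STAG1 rose with both hairpins (0.26 ± 0.06 and 0.48 ± 0.07), whereas STAG2 fell by 0.18 ± 0.07 with the first and rose by 0.25 ± 0.06 with the second. The regulators that passed with both hairpins and stood at either end in a comparison were TET3, TET1 and DNMT3B, which oxidize methylated cytosine (both TETs) or methylate it. TET3 rose by 1.31 ± 0.07 and 1.29 ± 0.07, TET1 fell by 1.198 ± 0.19 and 0.91 ± 0.19, and DNMT3B rose by 0.41 ± 0.08 with ASAH1 shRNA #1 but fell by 1.38 ± 0.10 with ASAH1 shRNA #2.

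The genes next to the clusters moved in both directions. Of 23 neighbors, 22 were tested, of which 4 rose, 12 fell and 6 did not pass with ASAH1 shRNA #1 (median -0.19). For ASAH1 shRNA #2, 5 rose, 9 fell and 8 did not pass (median -0.02). Among all genes, 32.8% were higher and 33.3% lower with the first hairpin, and 33.5% and 33.4% with the second. TAF7, a subunit of the general transcription factor TFIID encoded on the minus strand between the beta and gamma clusters (chr5:141259884-141320784), read 5515, 5588 and 5464 normalized counts with NS shRNA and 5627, 5741 and 5814 with ASAH1 shRNA #1 (0.05 ± 0.04, adjusted p = 0.29). It rose by 0.22 ± 0.06 with ASAH1 shRNA #2. DIAPH1, an actin regulator just downstream of the gamma cluster (chr5:141515016-141619055, minus strand), rose by 0.33 ± 0.05 and 0.27 ± 0.05. Of the neighbors that passed with both hairpins, those that fell most in a comparison were HDAC3 (-0.62 ± 0.06 and -0.27 ± 0.06) and TMCO6 (-0.22 ± 0.07 and -0.82 ± 0.08). CD14, named after its values were seen, fell further with ASAH1 shRNA #1 (-2.14 ± 0.09, adjusted p = 1.06e-07) and did not pass with ASAH1 shRNA #2 (0.10 ± 0.09, adjusted p = 0.356).

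Genes that work with the protocadherin cytoplasmic domains, such as the adhesion kinases and the WAVE complex that drives actin branching, also moved in both directions. Of 18 partners, 17 were tested, of which 4 rose, 9 fell and 4 did not pass with ASAH1 shRNA #1. With ASAH1 shRNA #2, 9 rose, 5 fell and 3 did not pass. For comparison, 32.8% of all genes tested rose and 33.3% fell with the first hairpin, and 33.5% and 33.4% with the second. PTK2B, a kinase that alpha and gamma domains bind, fell by 1.13 ± 0.06 and 0.62 ± 0.07, and the kinase FYN rose by 0.75 ± 0.05 and 0.54 ± 0.06. The WAVE complex subunit CYFIP1 fell by 0.52 ± 0.05 and 0.70 ± 0.06, whereas CYFIP2 fell by 0.58 ± 0.17 with ASAH1 shRNA #1 and rose by 0.97 ± 0.17 with ASAH1 shRNA #2.

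Markers of neurons, the cells in which clustered protocadherins are best known, moved in both directions, and their sum was lower in the knockdown libraries. The summed level of the 7 markers, most of it TUBB3, was 73.0 to 83.0 RPM with NS shRNA, 48.4 to 52.0 with ASAH1 shRNA #1 and 52.0 to 57.7 with ASAH1 shRNA #2. RBFOX3, the marker that defines mature neurons, had at most 8 reads in any library. Of the 6 tested, 1 rose and 3 fell with ASAH1 shRNA #1, and 1 rose and 1 fell with ASAH1 shRNA #2. The shares of all genes tested were 32.8% higher and 33.3% lower with the first hairpin, and 33.5% and 33.4% with the second. TUBB3, with the highest reads on this list, fell by 0.80 ± 0.08 and 0.68 ± 0.08, whereas SYT1 rose by 1.60 ± 0.11 and 1.49 ± 0.12. The 3 endothelial markers summed to 3.01 to 3.27, 1.74 to 2.81 and 1.37 to 1.97 RPM in the same groups. Most of it was PECAM1, with 39 to 102 reads, whereas VWF had at most 14 reads and CDH5 at most 3. PECAM1, the only one of them tested, fell with both hairpins (log2 fold changes of -0.59 and -0.91). The part of these markers in the protocadherin result was not tested.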

How the data were processed

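Per the study's methods, single-end reads were trimmed with Trimmomatic 0.36, aligned to hg38 with STAR 2.7.1a and counted with htseq-count against UCSC genes on the reverse strand, which leaves out ambiguous and multi-mapped reads. A second methods paragraph names other tools. The files deposited by the authors hold read counts divided by DESeq2 1.28 size factors (a signal per gene and library), in 1 table for each hairpin, beside the authors' own fold changes and p-values, which were not used. Multiplying each library by a recovered size factor returned whole reads for 100% of values within 0.001, with 0 differences between the tables for NS shRNA. In 1 table, 28 symbols had become dates and were restored from the other.

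limma 3.58.1 with a trend was run on log2(signal + 1) within a table, for genes with a mean of at least 10. edgeR 4.0.16 (quasi-likelihood, TMM) compared the hairpins, and as a count test called 9476 and 9554 genes against NS shRNA, with DESeq2 1.42.0 as an alternative. p-values were adjusted by Benjamini-Hochberg over all genes tested. R was 4.3.3, Python 3.11.15. Scripts were tested on simulated counts. Values ± are SE unless called SD. Intervals are exact 95% Clopper-Pearson intervals on summed reads and cover counting error only. Positions and exon lengths come from GENCODE v44 (hg38). Members with a mean of at least 10 in a table were named with values in each library, and the others were given by counts and ranges of reads. From the regulator, partner and neighbor lists, CTCF, cohesin, SMCHD1, TAF7, DIAPH1 and the genes passing in both comparisons with the largest and smallest changes were named. Members and lists were chosen with earlier results of these data known. The alternatives tried were the pseudocount (0.1 or 5), the minimum (none or 50), the trend, the scaling, the count tests, a joint fit, a replicate block and leaving out each library.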

Additional observations from a re-analysis of the deposited data

Results flagged for a closer look

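Of 25 members tested, 9 differed between the hairpins by the edgeR quasi-likelihood test, against 63.9% of all genes tested, with Benjamini-Hochberg adjusted p over all genes. As log2 ratios of ASAH1 shRNA #2 to ASAH1 shRNA #1 with SE, these were PCDH1 (1.42 ± 0.07), PCDH7 (-2.22 ± 0.41), PCDHB7 (1.78 ± 0.44), PCDHB8 (1.11 ± 0.34), PCDHB9 (0.63 ± 0.25), PCDHB10 (1.26 ± 0.15), PCDHB11 (0.84 ± 0.19), PCDHB15 (1.40 ± 0.28) and the pseudogene PCDHB19P (1.17 ± 0.40, adjusted p = 0.024). PCDH1 is the 1 member that passed with both hairpins in opposite directions. ASAH1 itself was lower with ASAH1 shRNA #2 than with ASAH1 shRNA #1 (-0.89 ± 0.05, adjusted p = 6.84e-08), and its part in these differences was not tested. The call of PCDHB9 was kept in 2 of 9 fits that left out 1 library, that of PCDHB19P in 6 of 9 (log2 ratios of 0.85 to 1.69, and adjusted p = 0.056 with DESeq2), that of PCDHB8 in 8 of 9, that of PCDHB7 in 7 of 7 and of PCDH7 in 4 of 4 in which they were tested, and that of PCDHB10, PCDHB11, PCDHB15 and PCDH1 in 9 of 9.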

How the results depend on the processing

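With a mean of at least 50, which leaves fewer members to test, the coding members called lower numbered 10 with ASAH1 shRNA #1 and 9 with ASAH1 shRNA #2 (beta 5 with the first, gamma 4 with each, non-clustered 1 and 0), 0 were called higher with the first, and between the hairpins 4 were higher (beta 3) and 0 lower (non-clustered 0). With no minimum, 4 non-clustered members were lower with each hairpin, and between the hairpins 2 members, both non-clustered, were lower and 1 gamma gene (PCDHGB2) was higher. A joint limma fit of all 9 libraries called 0 members higher and 1 non-clustered member lower with ASAH1 shRNA #1, and a fit of the 6 knockdown libraries called 0 lower between the hairpins, since PCDH7 was then below the minimum. Counting members with a mean of 10 or more in both groups, chosen after seeing the data, left 14 lower and 0 higher with ASAH1 shRNA #1 (gamma 5, non-clustered 1 lower and 0 higher) and 12 lower with ASAH1 shRNA #2 (gamma 5, non-clustered 0). The share of all genes at that minimum was not counted. The pseudocount, the trend, upper quartile scaling, edgeR and DESeq2 moved no count of a class by over 1.5 times. The medians of all genes shifted by under 0.1 with the scaling. Leaving out each library gave, with ASAH1 shRNA #1, 0 to 1 members higher (non-clustered 0 to 1), 15 to 20 lower, 9 to 9 beta, 5 to 9 gamma and 1 to 2 non-clustered lower, with ASAH1 shRNA #2 14 to 17 lower, 6 to 7 beta, 6 to 9 gamma and 0 to 1 non-clustered lower, and between the hairpins 0 to 1 lower (non-clustered 0 to 1) and 0 to 1 gamma genes higher or lower. These fits turned the sign of values near 0 that had not passed, as log2 ranges: with ASAH1 shRNA #1 PCDHGA5 (-0.49 to 0.27) and PCDHGB3 (-0.29 to 0.23), with ASAH1 shRNA #2 PCDHB15 (-0.22 to 0.13), PCDHB19P (-0.13 to 0.078) and PCDHB7 (-0.31 to 0.34), and between the hairpins PCDHB12 (-0.29 to 0.25), PCDHGA4 (-0.18 to 0.34), PCDHGA6 (-0.34 to 0.18), PCDHGA7 (-0.68 to 0.13), PCDHGB1 (-0.16 to 0.10) and PCDHGC5 (-0.34 to 0.049). PCDHB7 with ASAH1 shRNA #2 was -0.032 with edgeR and -0.039 with DESeq2, and PCDHGA4 between the hairpins was -0.026 with upper quartile normalization. Replicate numbers did not pair the libraries, since same-numbered libraries of different groups correlated from -0.30 to 0.20 and the others from -0.13 to 0.26. A replicate block moved no count of a class by over 1.5 times, and with it PCDHGB6 (adjusted p = 0.056) and PCDHGC5 (adjusted p = 0.0506) with ASAH1 shRNA #1 and PCDHB9 between the hairpins (adjusted p = 0.0753) no longer passed. Members with few reads limit the depth of the gamma result, and a change of the size of PCDHB14 could be missed in them.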
